A study of Homo sapiens with 8 samples.

Results

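The collagen, laminin and integrin genes are 3 families that build the extracellular matrix and anchor cells to it. Members were taken by gene symbol from the deposited count table: COL followed by a number, A and a number, LAM followed by A, B or C and a digit, and ITG followed by A or B and the chain's number or letter. The rule found 75 of the 16829 genes in the table, namely 38 collagens, 11 laminins and 26 integrins. Of these, 52 reached 1 CPM (counts scaled to a common library total) in at least 1 library (23 collagens, 10 laminins and 19 integrins), and 59 had enough counts to be tested (29, 10 and 20). RNA-seq was done on 8 libraries of 2 human colorectal cancer cell lines, 2 libraries in each of 4 groups. RKO control cells were compared with RKO cells that overexpress CYP1B1, a cytochrome P450 enzyme gene, and SW480 cells with a non-targeting short hairpin (shNT) with SW480 cells with a hairpin against CYP1B1 (shCYP1B1). Per the labels' protocols, cells of both lines grew in DMEM with serum and antibiotics and received lentivirus. A single hairpin against CYP1B1 was used, so its effects on other targets cannot be told apart from those on CYP1B1, and the labels do not say whether the cells were clones.

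A collagen is a trimer of alpha chains that is folded in the endoplasmic reticulum, secreted and assembled into fibrils, networks, beaded filaments or shorter linking forms, depending on the chain type. A laminin is a cross-shaped trimer of 1 alpha, 1 beta and 1 gamma chain, and laminins together with collagen IV form the basement membrane on which epithelial cells of the colon sit. Integrins are receptors of 1 alpha and 1 beta chain that span the cell membrane. They bind these ligands outside the cell and link them to the actin cytoskeleton through adaptor proteins at focal adhesions, except integrin α6β4, which binds laminin-332 and joins keratin filaments at hemidesmosomes. Because all 3 families act as multimers, a transcript level of 1 chain is not a level of the assembled protein.

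The libraries held between 31550173 and 34921085 counts, of which the 75 members took 0.336% to 0.503%. CYP1B1 had 22 and 24 counts in the RKO controls, 15238 and 17360 with overexpression, 50 and 76 with shNT, and 12 and 10 with shCYP1B1, so the targeted gene moved as labelled in both lines. Replicates are numbered in the labels, which do not say whether they came from separate cultures. The p-values therefore measure only the spread between these libraries, which may be technical. The RKO overexpression libraries differed most from each other. Over members above a minimum count, the median absolute log2 difference between replicates was 0.21 there (24 members). It was 0.09 in the RKO controls (26 members), 0.09 with shNT (38) and 0.06 with shCYP1B1 (38). Of 10 epithelial markers, 8 reached 1 CPM, with sums of 251 to 299 normalised CPM in RKO and 5285 to 5969 in SW480, and KRT20 and CDX1 did not. In RKO the sum was mostly KRT18 (176 to 190) and KRT8 (45.9 to 80.8, a rise of 0.72 on the log2 scale with overexpression), while EPCAM (1.69 to 1.99) and CDH1 (0.143 to 0.239) were low. With shCYP1B1 in SW480, 4 of the 10 fell (EPCAM, from 131 and 131 to 22.5 and 23.3, KRT19, VIL1 and CDX2), KRT8 and KRT18 rose by 0.26 and 0.27 on the log2 scale, and CDH1 (0.59) was not called. Of 7 fibroblast markers in the table, 3 reached 1 CPM. Their summed level was 7.71 to 11.0 CPM in RKO, 326 to 337 with shNT and 289 to 292 with shCYP1B1, and most of the SW480 sum was S100A4 (315 and 307 with shNT). PTPRC and PECAM1, which mark leukocytes and endothelium, stayed at or below 0.258 and 0.201 CPM. The 7 leukocyte markers in the table summed to 36.9 to 50.6 CPM in RKO, 31.7 to 34.3 with shNT and 20.3 to 20.6 with shCYP1B1, and the 6 endothelial markers to at most 2.65. The part of these markers in the results below was not tested. In bulk libraries such as these, fewer cells with a transcript and less transcript per cell cannot be told apart.

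RKO and SW480 expressed different parts of the 3 families. Of the 75 members, 21 reached 1 CPM in every library, 21 in SW480 alone, 2 in RKO alone (COL5A2 and LAMA1) and 23 in neither line. COL5A2 reached it only in overexpression replicate 2 (39 counts, 1.18 CPM), against 24, 21 and 18 counts in the other RKO libraries. The share of all genes that reach 1 CPM in 1 line alone is not given here. The 16 members without a test were COL10A1, COL11A1, COL14A1, COL20A1, COL21A1, COL23A1, COL24A1, COL25A1, COL6A5, LAMA4, ITGA4, ITGA8, ITGA11, ITGAD, ITGAL and ITGB3, and none of them exceeded 0.812 CPM. Among the chains missing in this sense are the beta chain of the αvβ3 vitronectin receptor (ITGB3) and the alpha chain of the α4 integrins of leukocytes (ITGA4). The members' own share of counts was higher with shCYP1B1 (0.503% and 0.497%) than with shNT (0.375% and 0.377%), and lower with CYP1B1 overexpression (0.342% and 0.336%) than in the RKO controls (0.400% and 0.410%). ITGB1 alone took 0.224% and 0.235% of counts in the RKO controls. Without it the shares were 0.176% and 0.175% in the controls and 0.159% and 0.169% with overexpression, and 0.351% and 0.353% with shNT and 0.473% and 0.466% with shCYP1B1.

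**Figure D1:**
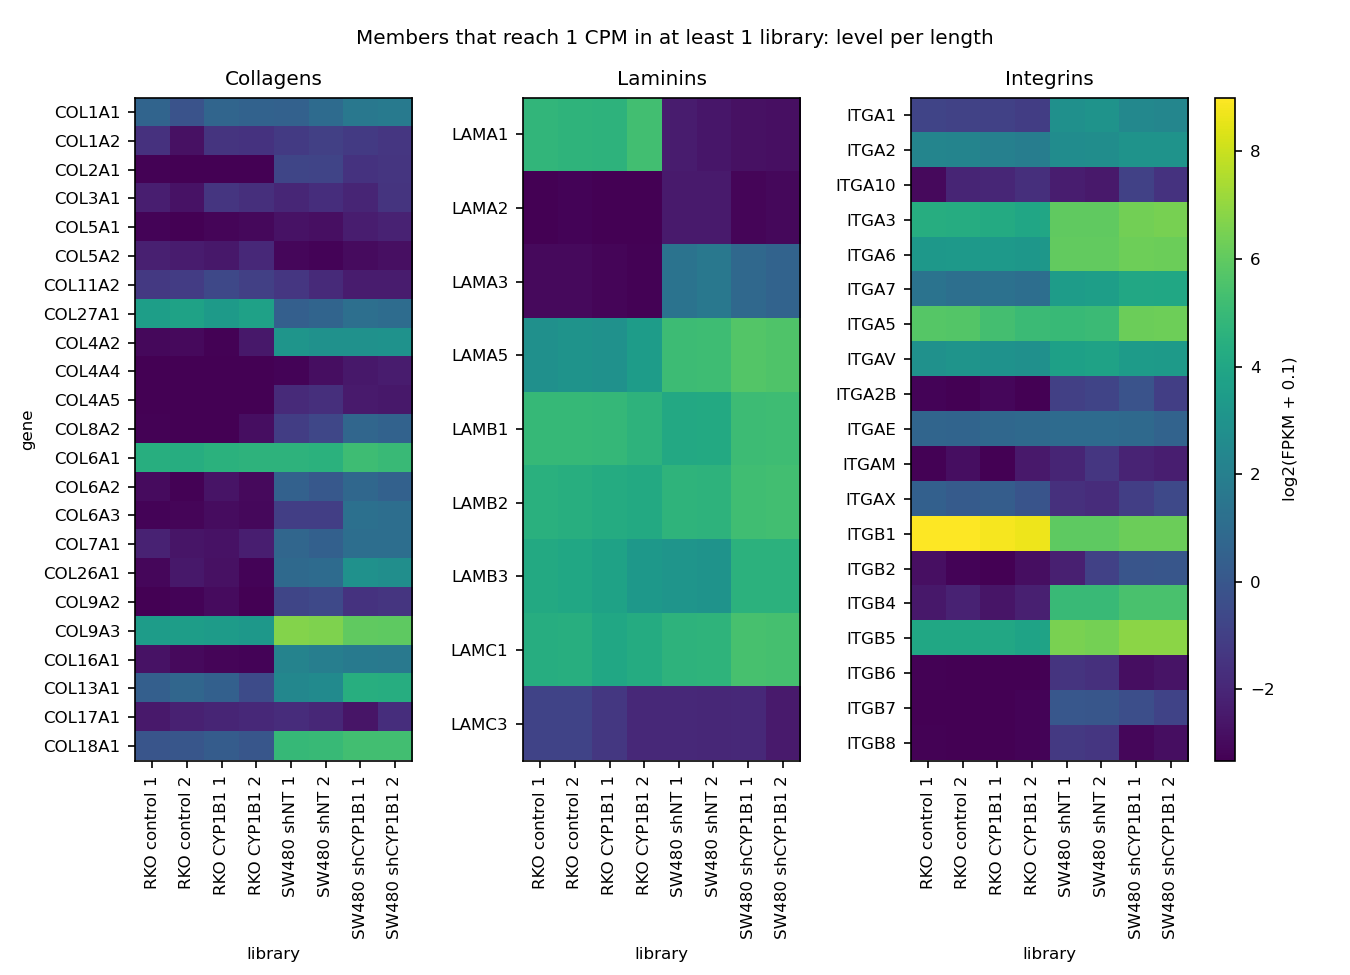
Level per length, as log2 of the deposited FPKM plus 0.1, of 51 of the 52 members that reached 1 CPM in at least 1 library, with genes in rows and the 8 libraries in columns. ITGB1 stands out in the 4 RKO columns, and COL9A3, COL18A1, ITGB4 and LAMA5 are higher in the 4 SW480 columns.

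In RKO, 4 integrin and 2 laminin chains fell with CYP1B1 overexpression, and 2 collagens rose. Tests were edgeR's quasi-likelihood test with Benjamini-Hochberg adjustment over all 14157 genes tested, as for every adjusted p below, with a threshold of 0.05. Of the 59 members tested, 2 rose and 6 fell, which is 13.6% called against a background of 27.6% over all genes tested (13.8% higher and 13.8% lower), a share below the background. Among the members that fell were the integrin chains ITGA5, ITGB1, ITGA2 and ITGA3 and the laminin chain LAMB3, and those that rose were COL6A1 and COL3A1. At least 2-fold changes were called in 1 member each way, with COL3A1 higher, where 0.664% of all genes tested passed that rule higher and 1.55% lower. The median log2 fold change over the members was -0.01 and over all genes 0.00. Without overexpression replicate 1, more members were called both ways. Without either control replicate or any 1 SW480 library, fewer members fell. The counts that rose and fell were 0 and 2 when the RKO libraries were fitted alone. The share of all genes called in those fits is not given here, so these counts show stability alone. A group left with 1 library has no spread of its own, and the fit assumes that it varies like the others.

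In SW480, the hairpin against CYP1B1 went with higher levels of most abundant laminin and integrin chains and of a set of collagens. Of the 59 members, 24 rose and 9 fell, which is 55.9% called against a background of 50.6% (25.3% higher and 25.3% lower). At least 2-fold changes were called higher in 11 members and lower in 4, where 7.13% and 6.39% of all genes tested passed the same rule. The median log2 fold change was 0.37 over the members and 0.00 over all genes. By family, 9 collagens rose and 2 fell of 29 (37.9% called), a share below the background of 50.6%. Among laminins 5 rose and 3 fell of 10 (80% called), and among integrins 10 rose and 4 fell of 20 (70%). The number that fell was 5 without either shNT library and 4 without either shCYP1B1 library.

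**Figure D2:**
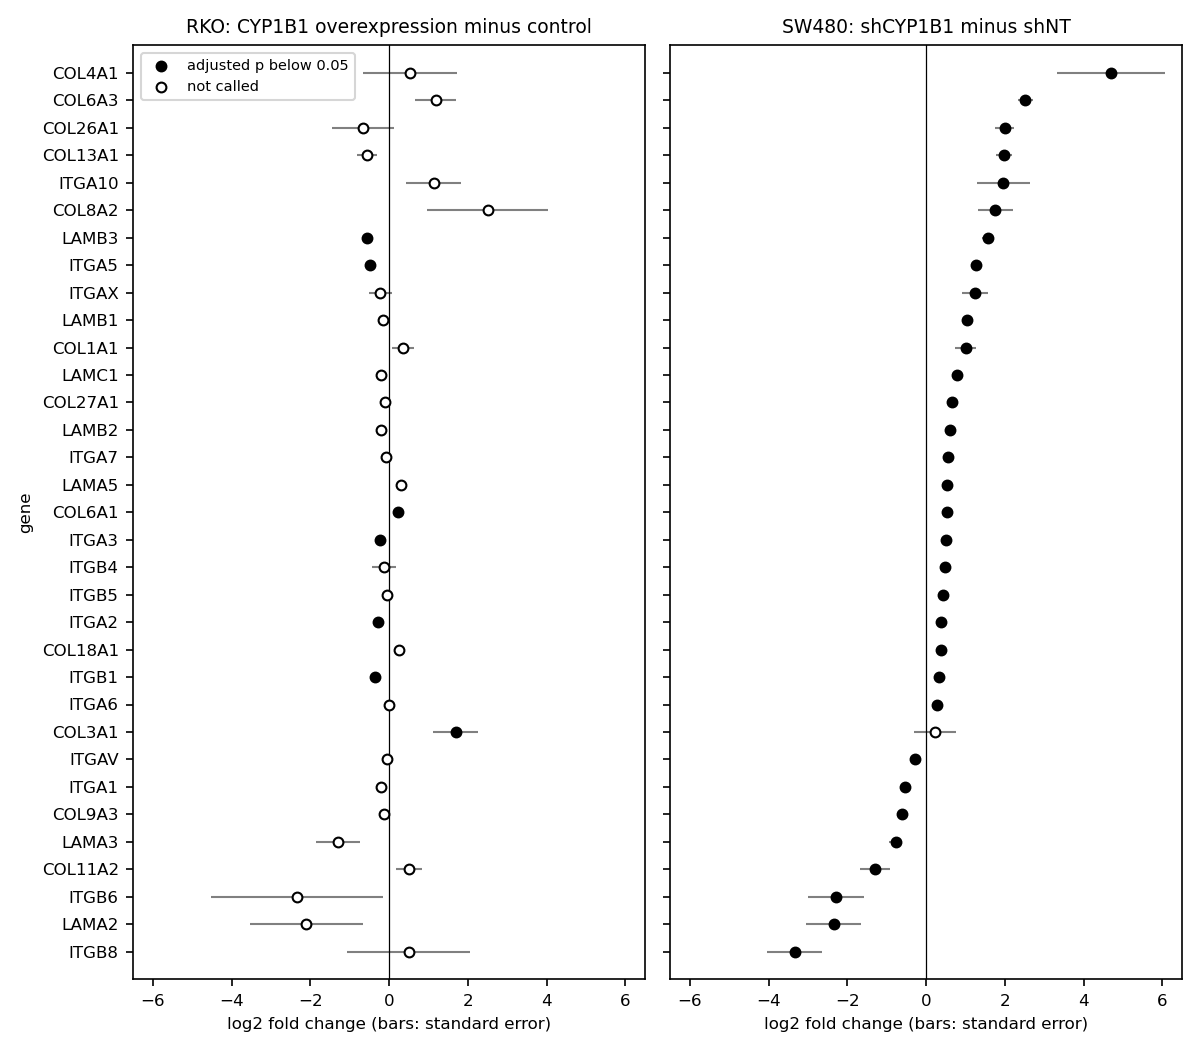
Log2 fold changes of members named in the text that were called in at least 1 of the lines, in RKO (CYP1B1 overexpression minus control) and SW480 (shCYP1B1 minus shNT), with bars for the standard error and filled points for an adjusted p below 0.05. ITGA5, ITGB1, ITGA2, ITGA3 and LAMB3 lie left of 0 in RKO and right of 0 in SW480, and COL6A1 lies right of 0 in both.

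ITGA5, ITGB1, ITGA2, ITGA3 and LAMB3 fell in RKO with more CYP1B1 and rose in SW480 with less of it. These 5 members of 59 make up 83.3% of the 6 members that fell in RKO and 20.8% of the 24 that rose in SW480. Over all genes tested, 444 had this pair of calls, which is 22.8% of those that fell in RKO and 12.4% of those that rose in SW480. The RKO and SW480 comparisons share no library, but the fit gave them a common estimate of the spread, so their calls are not independent. With the RKO libraries fitted alone, the RKO calls of ITGA2, ITGA3 and LAMB3 were lost (adjusted p = 0.123, 0.157 and 0.0521). COL6A1 rose in both lines, though its RKO call was lost in 15 of 18 alternatives.

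Promoter sequence is shown for the 4 of these 5 genes that have a window in the RefSeq promoter table (GRCh38.p14), because they moved together in both lines. RefSeq windows were found for 52 of the 75 members, 69 windows in all, and the 250 bases upstream of each start were searched on both strands for TGANTCA (AP-1), GGAATG (TEAD) and GGGCGG (SP1). Capitals mark matches to the AP-1 and TEAD letters, which do not overlap each other. A further window of ITGB1 and a further window of LAMB3 are not shown, and neither held AP-1 or TEAD letters. Parts that GENCODE release 29 holds as an exon are left out, and for ITGA5 only 30 bases around the match are shown, since the match lies inside the GENCODE 5′ UTR.
ITGA5, chr12:54419331-54419360, minus strand: tccagggacccaGGAATGcccccccgccag
ITGB1, chr10:32958233-32958480, minus strand: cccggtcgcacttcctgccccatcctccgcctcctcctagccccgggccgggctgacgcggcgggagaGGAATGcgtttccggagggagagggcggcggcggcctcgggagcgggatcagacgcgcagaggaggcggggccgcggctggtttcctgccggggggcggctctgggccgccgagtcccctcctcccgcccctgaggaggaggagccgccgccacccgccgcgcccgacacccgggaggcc
ITGA2, chr5:52989102-52989325, plus strand: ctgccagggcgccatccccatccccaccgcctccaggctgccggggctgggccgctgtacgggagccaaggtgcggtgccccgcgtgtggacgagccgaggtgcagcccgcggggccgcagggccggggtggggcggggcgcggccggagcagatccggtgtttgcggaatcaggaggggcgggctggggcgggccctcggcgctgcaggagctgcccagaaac
LAMB3, upstream start, chr1:209652467-209652675, minus strand: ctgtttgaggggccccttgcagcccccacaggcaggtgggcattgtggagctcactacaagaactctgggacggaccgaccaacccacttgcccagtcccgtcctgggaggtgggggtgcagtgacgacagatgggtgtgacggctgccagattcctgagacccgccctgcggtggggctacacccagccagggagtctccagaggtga
LAMB3, downstream start, chr1:209651395-209651624, minus strand: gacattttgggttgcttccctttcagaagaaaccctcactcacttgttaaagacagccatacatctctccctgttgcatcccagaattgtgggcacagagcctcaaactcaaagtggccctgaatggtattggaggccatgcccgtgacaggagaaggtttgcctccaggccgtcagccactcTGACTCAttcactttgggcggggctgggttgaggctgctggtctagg

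Among the members, 7 of 69 windows (10.1%) held the TEAD letters, against 11.9% of all 35116 windows in the table, and the genes were COL10A1, COL11A2, COL12A1, ITGA5, ITGA10, ITGB1 and LAMA2. The AP-1 letters stood in 3 of 69 windows (4.35%, of COL10A1, LAMA3 and LAMB3) against 6.57% of all windows. The SP1 letters stood in 39 of 69 (56.5%) against 42.6%. These are matches of letters and not measured binding, and the ITGA2 window held no AP-1 or TEAD match.

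ITGB1, on chromosome 10 (32900319 to 33005792, GRCh38, minus strand), encodes the β1 chain that pairs with most of the matrix-binding alpha chains. It was the most abundant integrin transcript per length in RKO, at 557 and 585 FPKM (fragments scaled by transcript length and library total, as deposited) in the controls and 457 and 415 with overexpression. In SW480 it stood at 61.5 and 61.5 with shNT and at 74.6 and 75.9 with shCYP1B1. The groups did not overlap within either line, and the gap between the lines was wider than either change. ITGB1 fell by 0.37 on the log2 scale in RKO (SE 0.06, adjusted p = 0.00148) and rose by 0.34 in SW480 (SE 0.06, adjusted p = 0.00105). By FPKM it ranked 73 to 112 of the 16829 genes in RKO and 852 to 1110 in SW480. It made up 81.8% to 83.4% of the summed FPKM of all integrin genes in RKO and 14.4% to 15.9% in SW480. Its FPKM was 5.55 to 5.99 times the sum of the 12 alpha chains it can pair with in RKO and 0.268 to 0.312 times that sum in SW480.

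ITGA5, on chromosome 12 (54395261 to 54419460, minus strand), encodes the alpha chain of the fibronectin receptor α5β1. It had 53.2 and 52.4 FPKM in the RKO controls, 40.0 and 34.2 with overexpression, 31.7 and 33.7 with shNT, and 74.8 and 77.7 with shCYP1B1. Both overexpression libraries lay below both controls, and both shCYP1B1 libraries lay above all other libraries. The log2 fold change was -0.49 in RKO (SE 0.08, adjusted p = 0.00129) and 1.26 in SW480 (SE 0.08, adjusted p = 6.70e-07). ITGA5 and ITGB1 passed the test in both lines under every alternative run.

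ITGA3 and ITGA2, on chromosomes 17 and 5, encode alpha chains of a laminin and a collagen receptor that pair with β1. ITGA3 had 20.4 and 19.8 FPKM in the RKO controls, 18.1 and 15.8 with overexpression, 62.8 and 62.7 with shNT, and 84.3 and 88.8 with shCYP1B1. ITGA2 had 4.80 and 4.63, 4.05 and 3.62, 6.20 and 6.54, and 7.98 and 8.05 FPKM in the same order. The groups of each line did not overlap for either gene, though the RKO changes were small. They were -0.23 for ITGA3 (SE 0.08, adjusted p = 0.0485) and -0.28 for ITGA2 (SE 0.09, adjusted p = 0.0394) in RKO, and 0.51 (SE 0.08, adjusted p = 2.26e-04) and 0.37 (SE 0.09, adjusted p = 0.00423) in SW480. Neither RKO call held without control replicate 1 (adjusted p = 0.224 for ITGA3 and 0.192 for ITGA2), without control replicate 2 (0.127 and 0.102) or without overexpression replicate 2 (0.0973 and 0.125, with ITGA3 at -0.13). Nor did they hold without any 1 SW480 library, with adjusted p from 0.0889 to 0.0896 for ITGA3 and from 0.0674 to 0.0734 for ITGA2, or with the replicate number as a block (adjusted p = 0.0510 and 0.0524).

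ITGA6 and ITGA7, further laminin receptor alpha chains, also rose in SW480. ITGA6, whose chain pairs with β1 or β4, went from 65.2 and 66.7 to 77.7 and 76.2 FPKM (0.27, SE 0.06, adjusted p = 0.00468), and ITGA7, which pairs with β1, from 11.1 and 11.9 to 16.7 and 16.0 (0.55, SE 0.10, adjusted p = 7.90e-04). In RKO, ITGA6 lay between 9.23 and 9.88 FPKM in all 4 libraries and ITGA7 between 2.08 and 2.50, and neither passed the test. ITGA1, a collagen receptor chain whose gene ends 30115 bases before the start of ITGA2 on the same strand, went the other way from its neighbour in SW480. It went from 7.15 and 8.02 to 5.21 and 5.00 FPKM (-0.53, SE 0.10, adjusted p = 8.20e-04), and in RKO it stayed between 0.372 and 0.472.

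ITGB4 and ITGB5 were higher in SW480 than in RKO. ITGB4, which encodes the β4 chain of the hemidesmosome receptor, had 0.0636 to 0.123 FPKM in RKO, 32.2 and 32.6 with shNT and 43.6 and 43.7 with shCYP1B1 (0.47, SE 0.09, adjusted p = 0.00153). ITGB5, whose chain pairs with αv to bind vitronectin, had 14.0 to 16.6 FPKM in RKO, 91.3 and 86.8 with shNT and 118 and 115 with shCYP1B1 (0.43, SE 0.08, adjusted p = 9.66e-04). Every SW480 library was above every RKO library for both genes, and both shCYP1B1 libraries were above both shNT libraries. The ITGB4 call was lost with limma on log2 of FPKM plus 0.1 (adjusted p = 0.0711). ITGB5 was not called in RKO, where its log2 fold change was -0.18 without overexpression replicate 1 and 0.06 without overexpression replicate 2.

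ITGB6 and ITGB8 encode the chains that pair with αv to bind latent TGF-β, and both fell in SW480 from low levels. ITGB8 had 112 and 102 counts with shNT and 6 and 14 with shCYP1B1 (-3.34, SE 0.70, adjusted p = 0.00211). ITGB6 had 42 and 36 counts with shNT and 6 and 9 with shCYP1B1 (-2.29, SE 0.71, adjusted p = 0.0203). In RKO the 4 libraries together held 5 counts of ITGB8 and 1 of ITGB6. ITGAV, their alpha partner, also fell in SW480, from 12.9 and 13.8 to 10.7 and 10.5 FPKM (-0.29, SE 0.08, adjusted p = 0.00811). The ITGB6 call did not hold without any 1 of the SW480 libraries (adjusted p from 0.0876 to 0.168). ITGAV lost its call without shNT replicate 2 (0.0947), shCYP1B1 replicate 1 (0.0503) and shCYP1B1 replicate 2 (0.0784).

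Among the leukocyte-type integrins, ITGAE, the αE chain of the E-cadherin receptor of mucosal lymphocytes, had 1.43 to 1.89 FPKM over the 8 libraries and was called in neither line. ITGAX, the αX chain of a complement receptor of myeloid cells, had 198 and 175 counts in the RKO controls and 196 and 134 with overexpression, and 39 and 33 counts with shNT against 65 and 97 with shCYP1B1. It rose in SW480 (1.23, SE 0.34, adjusted p = 0.00957), but not without shNT replicate 2 (adjusted p = 0.0672) or shCYP1B1 replicate 2 (0.94, adjusted p = 0.0890). ITGB2, its beta partner, had 0.000 to 0.125 normalised CPM in RKO and 0.346 and 1.30 with shNT against 2.78 and 2.83 with shCYP1B1, and was not called (1.76, SE 0.70, adjusted p = 0.0540). ITGA10, a collagen receptor chain known from cartilage, rose in SW480 from 18 and 15 counts to 77 and 46 (1.96, SE 0.68, adjusted p = 0.0314). That call was lost without shNT replicate 1 (adjusted p = 0.110), shNT replicate 2 (0.147) and shCYP1B1 replicate 1 (0.195).

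**Figure D3:**
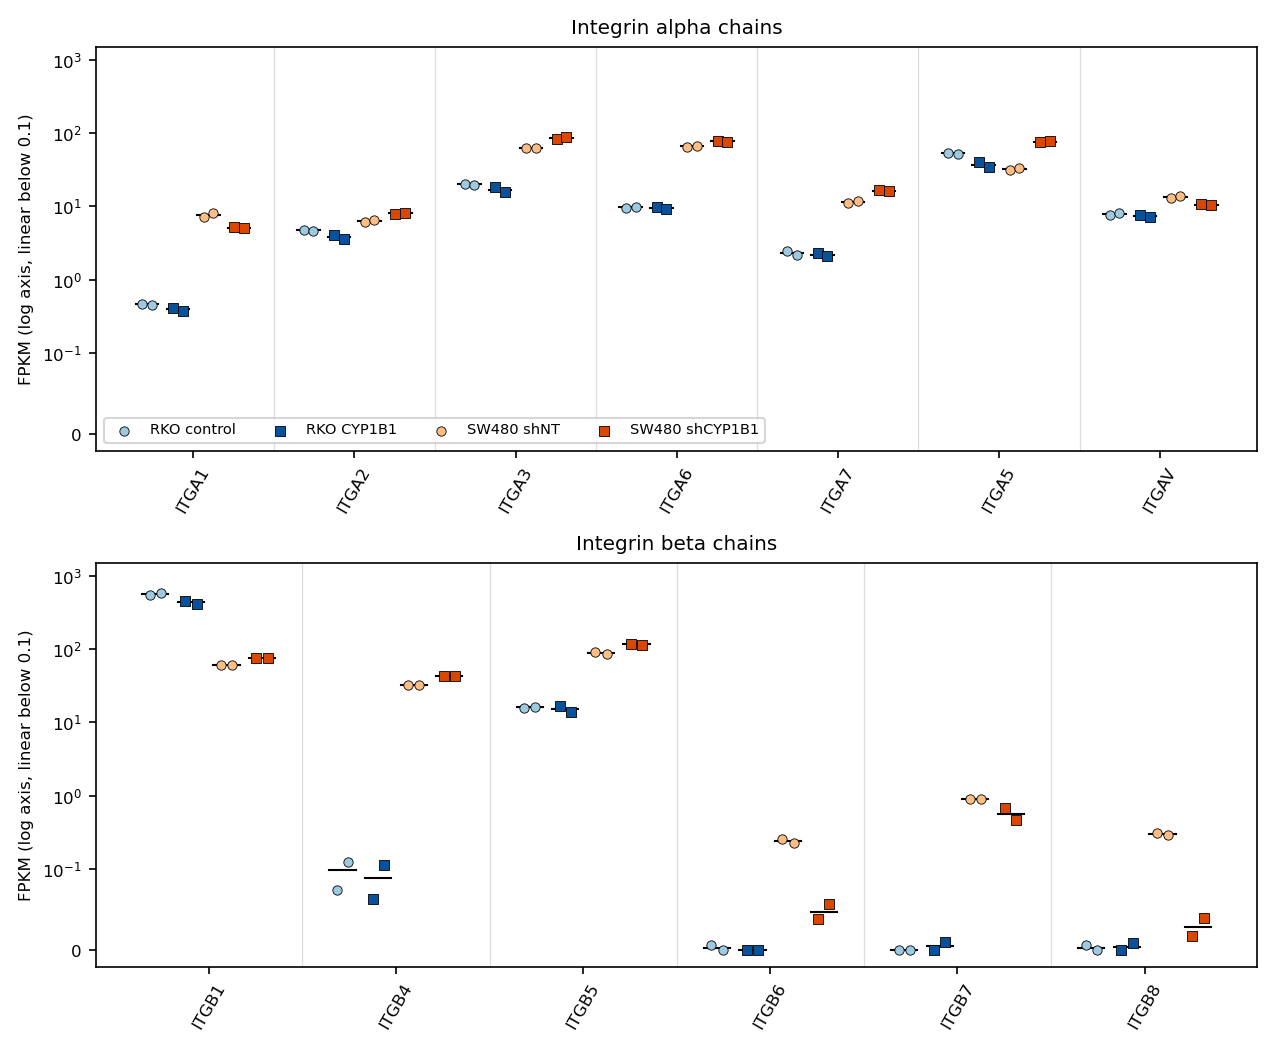
Deposited FPKM of 7 integrin alpha chains (top) and 6 beta chains (bottom) in each library, on a log axis that is linear below 0.1. Each point is a library, and each line is a group mean. ITGB1 lies at 415 to 585 in RKO and 61.5 to 75.9 in SW480, and ITGB4 lies at 32.2 to 43.7 in SW480 and below 0.13 in RKO.

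Each line held a different set of laminin chains. RKO expressed LAMA1, the α1 chain of the laminin-111 of embryonic basement membranes, at 27.1 and 25.9 FPKM in the controls and 25.2 and 38.0 with overexpression, and SW480 had 0.0421 to 0.0891. SW480 expressed LAMA3, the α3 chain of the laminin-332 of epithelial basement membranes, and RKO held at most 0.0240 FPKM of it. LAMA5, LAMB1, LAMB2, LAMB3 and LAMC1 reached 1 CPM in all 8 libraries. The overexpression libraries disagreed on LAMA1 and on LAMA5 (7.24 and 7.91 FPKM in the controls, 7.51 and 11.0 with overexpression), and neither gene passed the test in RKO (adjusted p = 0.192 and 0.118). Without overexpression replicate 1 they stood at 0.54 and 0.56, and without overexpression replicate 2 at -0.06 and 0.00.

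LAMB3 and LAMA3, whose chains are both part of laminin-332, moved in opposite directions in SW480. LAMB3, on chromosome 1 (209614870 to 209652466, minus strand), encodes β3 and had 17.5 and 16.3 FPKM in the RKO controls, 13.5 and 9.31 with overexpression, 8.53 and 8.07 with shNT, and 23.9 and 23.8 with shCYP1B1. The groups of each line did not overlap, and the shCYP1B1 libraries were the highest of all. It fell in RKO (-0.55, SE 0.13, adjusted p = 0.0105) and rose in SW480 (1.56, SE 0.14, adjusted p = 4.70e-06). The RKO value was -0.31 without overexpression replicate 2 and -0.84 without replicate 1, and the call was lost without control replicate 1 (adjusted p = 0.0924) or 2 (0.0505) and with the RKO libraries fitted alone (0.0521).

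LAMA3 went from 2.53 and 2.91 FPKM with shNT to 1.66 and 1.42 with shCYP1B1 (-0.77, SE 0.16, adjusted p = 0.00170). Both shCYP1B1 libraries were below both shNT libraries, opposite to LAMB3. In RKO, LAMA3 had 8 and 9 counts in the controls and 5 and 2 with overexpression, and did not pass the test.

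The chains of the broadly expressed laminins rose together in SW480. LAMB1, encoding β1, went from 17.5 and 18.0 to 35.3 and 35.7 FPKM (1.04, SE 0.08, adjusted p = 1.79e-06). LAMC1, encoding γ1, went from 24.8 and 25.8 to 42.8 and 41.8 (0.79, SE 0.08, adjusted p = 1.01e-05), and LAMB2, encoding β2, from 25.98 and 25.02 to 37.6 and 38.0 (0.61, SE 0.07, adjusted p = 4.11e-05). LAMA5, encoding the α5 chain of the main laminins of adult intestine, went from 35.4 and 36.0 to 51.8 and 48.8 (0.54, SE 0.13, adjusted p = 0.00516). In these 4 genes the SW480 groups did not overlap. In RKO none of the 4 passed the test, and their log2 fold changes were -0.15, -0.20, -0.21 and 0.31. Without overexpression replicate 1, LAMB1 and LAMB2 stood in RKO at -0.26 and -0.26 and LAMC1 at -0.10. Without overexpression replicate 2, LAMB1 stood at -0.05 and LAMC1 at -0.31. LAMB2 passed in RKO with RLE scaling (adjusted p = 0.0431) and with DESeq2 (0.0335). The LAMA5 call in SW480 was lost without shNT replicate 1 (0.0547), shNT replicate 2 (0.0521) and shCYP1B1 replicate 1 (0.0560).

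LAMA2, the α2 chain known from muscle basement membrane, fell in SW480 from 46 and 46 counts to 6 and 11 (-2.35, SE 0.69, adjusted p = 0.0143), with 6 counts in the 4 RKO libraries together. The call did not hold without any 1 of the SW480 libraries (adjusted p from 0.0693 to 0.148). LAMC3, encoding γ3, had 2.77 and 2.75 normalised CPM in the RKO controls, 1.86 and 1.02 with overexpression, and 0.571 to 1.07 in SW480, and passed the test in neither line.

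**Figure D4:**
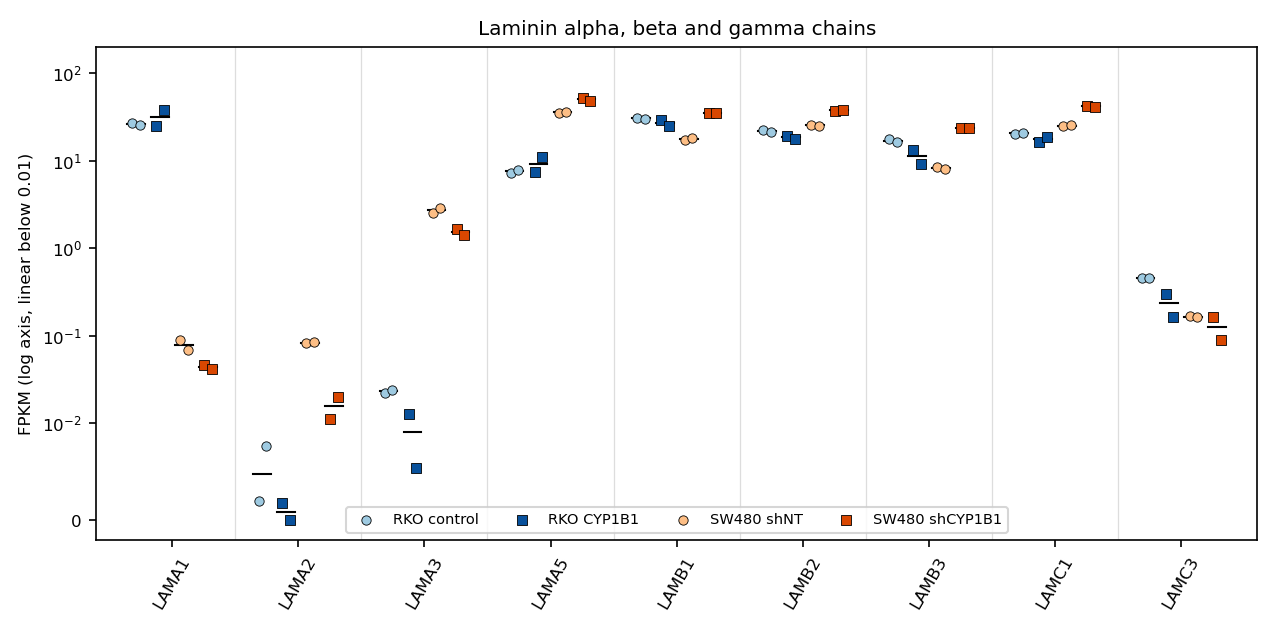
Deposited FPKM of 9 laminin chains, on a log axis that is linear below 0.01, with a point per library and a line at the group mean. LAMA1 is seen in RKO, LAMA3 in SW480, and with shCYP1B1 the LAMB1, LAMB3 and LAMC1 points lie above shNT while those of LAMA3 lie below.

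Among collagens, COL6A1 had the highest level per length in RKO and COL9A3 in SW480. COL9A3, a chain of the fibril-associated collagen IX known from cartilage, had 103 and 97.5 FPKM with shNT and 64.4 and 61.8 with shCYP1B1, against 9.49 to 11.4 in RKO. It fell in SW480 by 0.63 on the log2 scale (SE 0.08, adjusted p = 5.11e-05), and its share of the summed collagen FPKM was 55.2% and 54.1% with shNT and 33.5% and 33.5% with shCYP1B1. COL9A2, another collagen IX chain, had 1.96 and 2.17 normalised CPM with shNT and 1.01 and 1.14 with shCYP1B1, and did not pass the test.

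COL6A1 encodes the α1 chain of collagen VI, which forms beaded filaments with α2 and α3. It had 21.3 and 20.4 FPKM in the RKO controls, 23.1 and 25.2 with overexpression, 24.8 and 23.6 with shNT and 35.4 and 32.8 with shCYP1B1. It rose in SW480 (0.54, SE 0.08, adjusted p = 1.58e-04) and by less in RKO (0.23, SE 0.08, adjusted p = 0.0476). The RKO call did not hold without any 1 of 7 libraries (adjusted p from 0.0747 to 0.272), the exception being overexpression replicate 1, nor with RLE scaling (0.0534), library size only (0.0595), no filter (0.0578), limma (0.0674 to 0.0789), the replicate block (0.0709) or the RKO libraries alone (0.130).

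The partner chains of COL6A1 were nearly absent in RKO. COL6A2, 93046 bases downstream of COL6A1 on chromosome 21 and on the same strand, had at most 0.0558 FPKM in RKO and 0.949 to 1.63 in SW480. COL6A3 had at most 0.0309 FPKM in RKO, 0.385 and 0.394 with shNT and 2.25 and 2.08 with shCYP1B1. It rose by 2.52 in SW480 (SE 0.19, adjusted p = 2.04e-06), with both shCYP1B1 libraries above all others, while COL6A2 did not pass the test there.

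COL13A1 and COL26A1 rose in SW480 from moderate levels. COL13A1, a transmembrane collagen found at cell junctions, went from 5.05 and 5.79 to 21.0 and 20.2 FPKM (1.97, SE 0.21, adjusted p = 1.54e-05), and it had 1.22 and 1.59 in the RKO controls and 1.26 and 0.607 with overexpression. COL26A1 went from 1.74 and 1.89 to 7.30 and 6.75 FPKM (2.00, SE 0.24, adjusted p = 4.62e-05) and had at most 0.0762 in RKO. The SW480 groups did not overlap for either gene. In RKO COL13A1 stood at -0.57 and did not pass the test, but passed with DESeq2 (adjusted p = 0.0469). Its RKO value was -1.19 without overexpression replicate 1 and -0.14 without overexpression replicate 2.

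COL18A1, a basement membrane proteoglycan whose C-terminal fragment is endostatin, had 30.5 and 31.3 FPKM with shNT and 39.0 and 38.4 with shCYP1B1 (0.37, SE 0.08, adjusted p = 0.00254) and 0.842 to 1.12 in RKO. COL27A1, a fibrillar collagen of cartilage, had its high level in RKO, with 10.2 to 13.7 FPKM in the 4 libraries. In SW480 it rose from 1.21 and 1.49 to 2.19 and 1.97 (0.67, SE 0.14, adjusted p = 0.00238), a call lost with limma without a filter (0.0634). COL9A3, COL18A1 and COL27A1 were not called in RKO. Without overexpression replicate 1 they stood there at -0.23, 0.08 and 0.06, and without overexpression replicate 2 at -0.04, 0.40 and -0.31.

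The fibrillar collagens of connective tissue were low in all libraries. COL1A1, encoding a chain of collagen I, had 1.49 and 0.777 FPKM in the RKO controls, 1.51 and 1.35 with overexpression, 1.30 and 1.88 with shNT and 2.92 and 3.26 with shCYP1B1. It rose in SW480 (1.00, SE 0.27, adjusted p = 0.00850), a call lost without shNT replicate 1 (0.77) or shCYP1B1 replicate 2 (0.93). In RKO it was not called, and stood at 0.91 without control replicate 1 and at -0.06 without control replicate 2. COL1A2, its partner chain, stayed between 0.234 and 2.09 normalised CPM over the 8 libraries and passed in neither line. COL3A1 had 18 and 9 counts in the RKO controls and 52 and 39 with overexpression (1.69, SE 0.57, adjusted p = 0.0479). That call was lost without any library but overexpression replicate 2 (adjusted p from 0.0571 to 0.252). COL11A2, of collagen XI, fell in SW480 from 84 and 53 counts to 26 and 27 (-1.30, SE 0.38, adjusted p = 0.0134), but not without shNT replicate 1 (-0.92, adjusted p = 0.125), shCYP1B1 replicate 1 (0.0702) or shCYP1B1 replicate 2 (0.0667).

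COL4A1 and COL4A2 encode the 2 chains of the common collagen IV trimer and lie head to head on chromosome 13, with RefSeq starts 126 bases apart (110307157 on the minus and 110307284 on the plus strand). Their transcripts were unequal in SW480. COL4A2 had 1918 and 1652 counts with shNT and 1646 and 1682 with shCYP1B1, while COL4A1 had 0 and 1 counts with shNT and 10 and 21 with shCYP1B1. In RKO, COL4A2 had 4, 5, 1 and 16 counts and COL4A1 had 1, 5, 8 and 1. The gene models overlap in GENCODE, and whether the authors' counting used strand is not given in the sources used here, so reads near the shared start cannot be told apart. The SW480 ratio of COL4A1 was 32.5 (95% counting interval 5.42 to 1325, counting error only) and passed the test (adjusted p = 0.0141). It did not pass without shNT replicate 1 (0.116), shNT replicate 2 (0.0579) or shCYP1B1 replicate 2 (0.105), nor with limma on log2 of FPKM plus 1 (0.377). COL8A2, a network collagen of vessel and corneal membranes, rose in SW480 from 71 and 97 counts to 288 and 255 (1.76, SE 0.44, adjusted p = 0.00594), a call lost without shNT replicate 1 (0.0665) or shCYP1B1 replicate 1 (0.0646). COL7A1, the anchoring fibril collagen, had 15.1 and 11.9 normalised CPM with shNT and 20.5 and 20.3 with shCYP1B1. Its log2 fold change of 0.60 did not pass with all 8 libraries, but it passed with DESeq2 (adjusted p = 0.0317) and with SW480 fitted alone (1.67e-05). Without any 1 RKO library the value stayed at 0.60.

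**Figure D5:**
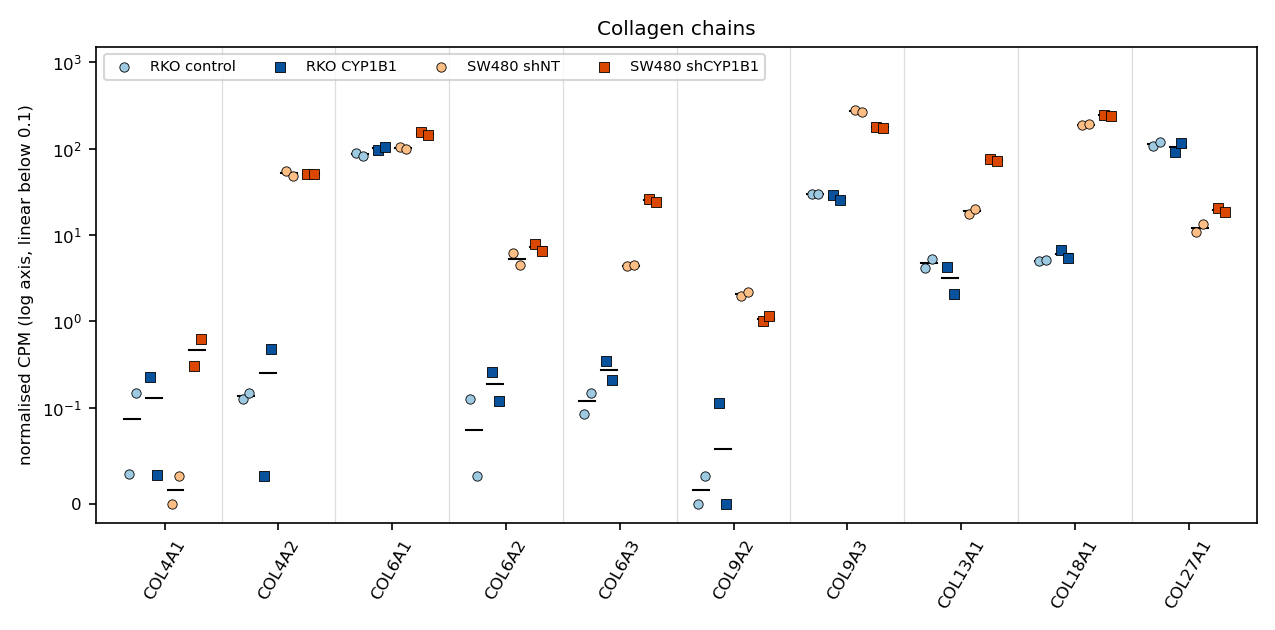
Normalised CPM of 10 collagen genes in each library, on a log axis that is linear below 0.1, with a point per library and a line at the group mean. COL4A2 lies far above COL4A1 in SW480, COL6A1 is seen in all groups while COL6A2 and COL6A3 are seen in SW480, and COL9A3 lies lower with shCYP1B1 than with shNT.

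The control groups of the lines were also compared (SW480 shNT minus RKO control), where line and control construct cannot be told apart. Of the 59 members, 42 were higher in SW480 and 9 lower, 86.4% called against a background of 76.8% (41.2% higher and 35.6% lower), and 37 and 6 of them differed at least 2-fold (24.9% and 15.8% of all genes tested). The median log2 difference was 2.99 over the members and 0.08 over all genes. LAMA1 (-8.34, SE 0.24, adjusted p = 3.08e-11), COL27A1 (-3.21, SE 0.14) and ITGB1 (-3.17, SE 0.07) were the members furthest below RKO. COL4A2 (8.53, SE 0.37), ITGB4 (8.39, SE 0.16, adjusted p = 1.28e-12), LAMA3 (6.89, SE 0.25), COL16A1 (6.79, SE 0.27) and COL18A1 (5.22, SE 0.10) were far above it. Some members had no count in the RKO controls, and against a floor of 3 counts per library ITGB7, the β7 chain of gut-homing leukocyte integrins, was at least 29.1-fold higher in SW480 (182 counts over 2 libraries), COL4A5 at least 15.7-fold (98 counts) and COL22A1 at least 4.63-fold (29 counts). COL2A1, the main collagen of cartilage, had 1 count in the RKO controls and 199 with shNT, a ratio of 191 (95% counting interval 33.8 to 7572).

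The CYP1B1-high minus CYP1B1-low change was compared between the lines, as RKO overexpression minus control less SW480 shNT minus shCYP1B1. CYP1B1 itself changed by 9.42 on the log2 scale with overexpression in RKO and by -2.44 with shCYP1B1 in SW480. It had only 1.44 and 2.20 normalised CPM with shNT, so the contrast does not compare equal changes in CYP1B1. The difference passed the test in 25 of 59 members, 18 above 0 and 7 below, 42.4% against a background of 42.6% (21.0% and 21.6%), and at least 2-fold in 7 and 4 of them (6.87% and 8.15% of all genes tested). Of the 5 members that fell in RKO and rose in SW480, ITGA5 (0.77, SE 0.11, adjusted p = 2.99e-04) and LAMB3 (1.01, SE 0.19, adjusted p = 0.00141) changed by more in SW480. No difference was called for ITGB1, ITGA2 and ITGA3. COL6A1 (0.77, SE 0.11) rose under both manipulations and therefore moved in opposite directions with CYP1B1. Its RKO rise of 0.23 lost its call in 15 of 18 alternatives. Both numbers were lower without some single libraries, among them control replicate 2 and shCYP1B1 replicate 1. The share of all genes called in those fits is not given here.

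Genes that act with the 3 families were followed from 4 lists, read against the 27.6% of all genes called in RKO and 50.6% in SW480. Of 33 enzymes and chaperones that process collagen and matrix, 9 rose and 4 fell in RKO (39.4% called) and 10 rose and 7 fell in SW480 (51.5%). LOXL2, a lysyl oxidase that crosslinks collagen, rose in both (0.70 and 1.85), SERPINH1, the collagen chaperone HSP47, rose by 0.59 in RKO and fell by 0.25 in SW480, and ADAMTS2, which cleaves procollagen, rose by 2.35 in SW480. Of 24 tested ligands of basement membrane and matrix outside the 3 families, 3 rose and 1 fell in RKO (16.7%) and 6 rose and 5 fell in SW480 (45.8%), among them SPARC, a collagen-binding glycoprotein, at 1.10 and 1.69. Of 48 focal adhesion and adaptor genes, 10 rose and 9 fell in RKO (39.6%) and 18 rose and 5 fell in SW480 (47.9%). FERMT1, kindlin-1, fell by 0.48 in RKO and by 1.52 in SW480, where ZYX, encoding the focal adhesion protein zyxin, rose by 0.94. Of 20 other matrix receptors, 5 rose and 6 fell in RKO (55.0%) and 9 rose and 4 fell in SW480 (65.0%). DAG1, the dystroglycan receptor of laminin, rose by 0.38 in RKO and fell by 0.93 in SW480, and CD44, the hyaluronan receptor, rose by 1.20 in SW480.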

How the data were processed

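For the 8 libraries the authors deposited raw counts by gene and, separately, FPKM values, in which counts are divided by gene length and library total. Libraries were made from total RNA with a stranded mRNA kit, per the labels' protocols, and GRCh38.p13 is the build named in the submitters' processing notes. Which aligner, annotation and strand setting were used is not given in the sources used here. Column names were matched to the sample titles, which give the groups. Counts were tested with edgeR 4.0.16 (R 4.3.3; TMM scaling, filterByExpr with a minimum count of 10, quasi-likelihood test, 1 coefficient per group over all 8 libraries, 4 residual degrees of freedom) and adjusted by Benjamini-Hochberg over 14157 genes, and the procedure was tested on simulated data. With 2 libraries against 2, an exact permutation test cannot go below p = 0.333, so none was used. Alternatives were DESeq2 1.42.0, limma 3.58.1 on log2 of the deposited FPKM plus 1 or 0.1, other scalings and filters, each line alone, a replicate block and each library left out. Normalised CPM is the count scaled to the TMM-adjusted library total. FPKM serves for levels between genes. Counting intervals are 95% exact binomial intervals. Counts of members cover all 75, and 1 of them is not reported here by name. The members and all gene lists were chosen with earlier results of these data known. Members were named in the text where they were called in a line with groups that do not overlap or were called in both lines. Others had the highest mean FPKM of their family or differed most between the control groups. Some, such as COL7A1 and COL17A1, stood on a fixed list. Partner chains of these were added after their values were seen, and ITGAE was named outside these rules. Positions are from GENCODE release 29 and promoter windows from RefSeq.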

Additional observations from a re-analysis of the deposited data

Results flagged for a closer look

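The change with CYP1B1 (CYP1B1-high minus CYP1B1-low, by edgeR's quasi-likelihood interaction contrast) differed between RKO and SW480 in members of all 3 families. The change in CYP1B1 itself was also unequal, at 9.42 on the log2 scale with overexpression in RKO and -2.44 with shCYP1B1 in SW480. Among laminin chains the difference on the log2 scale was -4.46 for LAMA2, -2.07 for LAMA3, 0.40 for LAMB2, 0.58 for LAMC1, 0.84 for LAMA5, 0.89 for LAMB1 and 1.01 for LAMB3, so LAMA3 and LAMB3, both of laminin-332, lay on opposite sides of 0. Among integrin chains it was -0.74 for ITGA1, -0.36 for ITGAV, 0.25 for ITGA6, 0.38 for ITGB5, 0.48 for ITGA7, 0.77 for ITGA5 and 3.09 for ITGA10. Among collagens it was -1.93 for COL16A1, -0.76 for COL9A3, 0.55 for COL27A1, 0.62 for COL18A1, 0.77 for COL6A1, 1.35 for COL1A1, 1.40 for COL13A1, 3.70 for COL6A3, 4.26 for COL8A2 and 5.23 for COL4A1.

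Some of these calls were lost under other settings. The adjusted p was 0.0442 for ITGA6, which lost its call in 11 of 17 alternatives (library size only, limma and the replicate block among them), 0.0356 for COL27A1 (9 of 17, up to 0.345), 0.0344 for COL16A1 (7 of 17, up to 0.260) and 0.0205 for ITGB5 (6 of 17). ITGA7, ITGAV and ITGA10 lost theirs in 4 alternatives each, COL1A1 and LAMA3 in 2 and LAMB2 in 1. COL8A2, COL4A1 and LAMA2 had few counts in RKO, as did COL6A3 (3, 5, 12 and 7), COL16A1 (10, 5, 3 and 2) and LAMA3 (counts given above). COL8A2 had 1, 0, 0 and 7 counts in the 4 RKO libraries, and its difference was -0.59 without overexpression replicate 2, which held the 7. Its call was lost in 7 more of 17 alternatives, among them library size only and each left-out SW480 library. COL4A1 had 1, 5, 8 and 1 counts and LAMA2 had 1, 4, 1 and 0. COL4A1 lost its call in 13 of 16 alternatives and LAMA2 in 9 of 16. For both these included no filter, the replicate block and limma on log2 of FPKM plus 1. With 1 library left out, their differences ranged from 3.22 to 7.51 and from -6.76 to -3.28. COL9A3, LAMB1, COL6A1, ITGA5 and COL6A3 kept their calls without any 1 library.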

How the results depend on the processing

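In RKO the number of members that rose was 2 in the reported fit, 1 with RLE scaling, library size only, no filter, limma with a pseudocount of 1 or 0.1, or the replicate block, and 0 with limma without a filter or with each line on its own. Leaving out 1 library gave 0 to 5. The number that fell was 6, 2 with each line on its own, 4 with the replicate block, and 3 to 12 with 1 library left out. In SW480, 24 rose (19 to 26 with 1 library left out, 25 with the block) and 9 fell (4 to 11, and 9 with the block). Differences between the lines numbered 18 above 0 (11 to 21) and 7 below (4 to 8), with 12, 11 and 12 below under limma on FPKM plus 1, plus 0.1 and plus 1 without a filter. The contrast of the control groups stayed within 1.5 times of 42 and 9 throughout. A group left with 1 library is assumed to vary like the others. Replicate differences in the groups of a line had a correlation over genes of -0.03 in RKO and -0.01 in SW480. That value cannot show whether the libraries were prepared as pairs.

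With 1 library left out, these log2 values changed sign, all of them without a call in the reported fit save the last. In RKO, COL1A1 ranged from -0.059 to 0.91, COL27A1 from -0.31 to 0.060, COL4A1 from -1.48 to 1.95, COL4A2 from -2.11 to 1.79, COL7A1 from -0.93 to 0.27, ITGA6 from -0.051 to 0.026, ITGA7 from -0.19 to 0.049, ITGB4 from -0.62 to 0.27, ITGB5 from -0.18 to 0.062, ITGB8 from -3.20 to 3.70 and LAMA1 from -0.057 to 0.54. In SW480, COL17A1 ranged from -1.43 to 0.28 and COL4A2 from -0.13 to 0.085. The line difference of COL8A2 ranged from -0.59 to 6.61. The median of all genes in the control contrast was 0.08, and 0.12 with RLE scaling. Depth limits the 23 members below 1 CPM.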
